A study of Mus musculus with 12 samples.

Results

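The genes of the Wnt signalling pathway were followed in cultured mouse aortic endothelial cells that lacked the transcription factors Ets1, Ets2 or both. The set was chosen by symbol: names that open with Wnt or Tle and a digit, or with Fzd, Sfrp, Dkk, Dvl, Axin, Tcf7 or Lgr, together with Lrp5, Lrp6, Lef1, Wif1, Ctnnb1, Apc, Gsk3b, Porcn and Frzb. It held 39 of the 11015 genes on the Affymetrix table: 6 ligands or ligand-processing genes, 13 receptors, 6 secreted modulators, 6 cytoplasmic relay genes and 8 nuclear factors. RefSeq lists 65 protein-coding mouse genes of this kind, and the other 26, among them Axin2, Lef1, Tcf7, Lrp5, Dkk1, Wif1, Wnt2, Wnt3a and Wnt4, were not analysed here. RNA came from cells of mice aged 4 weeks, and each of the 4 groups was labelled as 3 biological replicates. The labels do not say whether each replicate was a separate animal, so p-values measure only the spread between these arrays.

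Wild-type cells were Ets1+/+; Ets2+/+ and had been given a lentivirus with egfp. Ets1 null cells were Ets1-/-; Ets2fl/fl with that same egfp virus, so their intact Ets2 alleles were floxed. The labels conflict for both single nulls. Titles and genotypes name the gene as lost, while the free-text descriptions call that same gene wild type. The former were followed. Ets2 null cells were Ets1+/+; Ets2fl/fl with a virus that carried egfp and Cre, the recombinase that cuts out floxed DNA. Ets1/2 null cells, called double null here, were Ets1-/-; Ets2fl/fl with the egfp and Cre virus. No group had Cre without floxed Ets2, so an effect of Cre and one of Ets2 loss cannot be told apart.

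Wnt proteins are lipid-carrying secreted ligands that bind Frizzled receptors (Fzd) together with the co-receptors Lrp5 and Lrp6. Without a ligand, a complex of Axin, Apc and Gsk3b marks beta-catenin (Ctnnb1) for breakdown. A bound receptor draws in Dishevelled (Dvl), which holds that complex back, and beta-catenin then enters the nucleus and acts with Tcf and Lef proteins, from which it displaces Tle co-repressors. Other branches run through Dishevelled to cell polarity, the actin skeleton and calcium. In endothelial cells the pathway is known for vessel growth and barrier formation in the brain and, through Fzd4, in the retina.

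The arrays labelled double null stood apart from the rest. The column given as their replicate 3 equalled the mean of the other pair in 20521 of 20523 probe sets (within 1e-06, largest deviation 0.585) and was left out, so n = 2 in that group and 3 in the others. The median deposited log2 value over all genes was 8.73 and 8.69 in them, against 9.37 to 9.5 in the other 9 arrays. Values below are therefore centred log2 values, each array's own median subtracted, unless called deposited, and a difference of 1 is a change by a factor of 2. Against wild type the median difference over all genes in these arrays was 0.11 centred and -0.61 deposited, so the rises of Wnt genes called there are given with their deposited values. The brightest Ets1 probe set was lower in Ets1 null than in any wild-type array (-1.35 ± 0.23, SE, adjusted p = 0.151). It was higher in the arrays labelled double null than in Ets1 null by 2.17 ± 0.25 (adjusted p = 0.000713; deposited 1.41), which goes against their label. Against wild type it was higher there by 0.82 ± 0.25 (adjusted p = 0.0393; deposited 0.10). Ets2 differed from wild type by -0.43 ± 0.35 in Ets2 null (adjusted p = 0.544) and by 0.90 ± 0.40 in the arrays labelled double null (adjusted p = 0.121; deposited 0.18). Against Ets2 null those arrays were higher in Ets2 by 1.33 ± 0.40 (adjusted p = 0.0325; deposited 0.62, adjusted p = 0.255). Against Ets1 null the difference was 0.69 ± 0.40 (adjusted p = 0.224; deposited -0.07). A lower Ets2 was thus not seen there. Where these probe sets lie relative to the deleted parts is not given in the sources used here. Of 25 endothelial markers 7 were on the table (Kdr, Flt1, Eng, Cd34, Egfl7, Plvap and Mmrn2), and their summed centred level was 2.00 to 4.02 on the wild-type arrays, 1.17 to 1.90 on the Ets1 null arrays, 2.68 to 3.70 on the Ets2 null arrays, and 1.96 and 1.91 on those labelled double null. Sex was inferred from the deposited values of Eif2s3y and Xist. Male cells gave the 3 Ets2 null arrays and wild-type array 1 (Eif2s3y 9.30 to 10.23, Xist 7.26 to 7.50). Female cells gave the other 7 (3.12 to 3.66 and 11.45 to 13.52). Ets2 null thus also differed in sex from wild-type arrays 2 and 3. The lowest limma weights went to wild-type array 3 (0.320) and to Ets2 null array 3 (0.297).

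With Ets1 or Ets2 lost alone, 0 of the 39 Wnt genes passed the test, whereas 9 did in the arrays labelled double null: Fzd2, Dvl2, Tle5, Axin1 and Wnt7a were lower and Wnt9a, Lrp6, Ctnnb1 and Gsk3b higher than in wild type. The test was limma over all 11015 genes, called at an adjusted p under 0.05. In Ets1 null 6 members, and in Ets2 null 5, had an unadjusted p under 0.05, beside 8.71% and 18.9% of all genes, of which 0.00908% and 0.436% were called. Of all genes, 28.3% were called between double null and wild type, 16.4% higher and 12% lower, beside 4 and 5 of the 39 Wnt genes, so the shares of the set lay near those of all genes. The 5 lower calls also stood in the deposited values (all genes 12%) and 0 of the 4 higher calls did (all genes 2.32%). The arrays labelled double null lie lower as deposited, so falls grow and rises shrink there. All 1317 lower calls over all genes stood too, so this does not set the falls above the rises. The median difference of the set was -0.06 in Ets1 null, 0.07 in Ets2 null and 0.17 in the arrays labelled double null (deposited -0.55), beside -0.03, -0.01 and 0.11 over all genes. Every array of a null group lay above every wild-type array for 2, 4 and 10 Wnt genes in the same order (all genes 7%, 13.6% and 30.2%) and below for 8, 3 and 6 (all genes 11.5%, 13.4% and 22.1%). The count of 9 was 14 without wild-type array 3 (all genes 27.6%), and it fell without double null array 2, which leaves 1 array in that group.

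**Figure D1:**
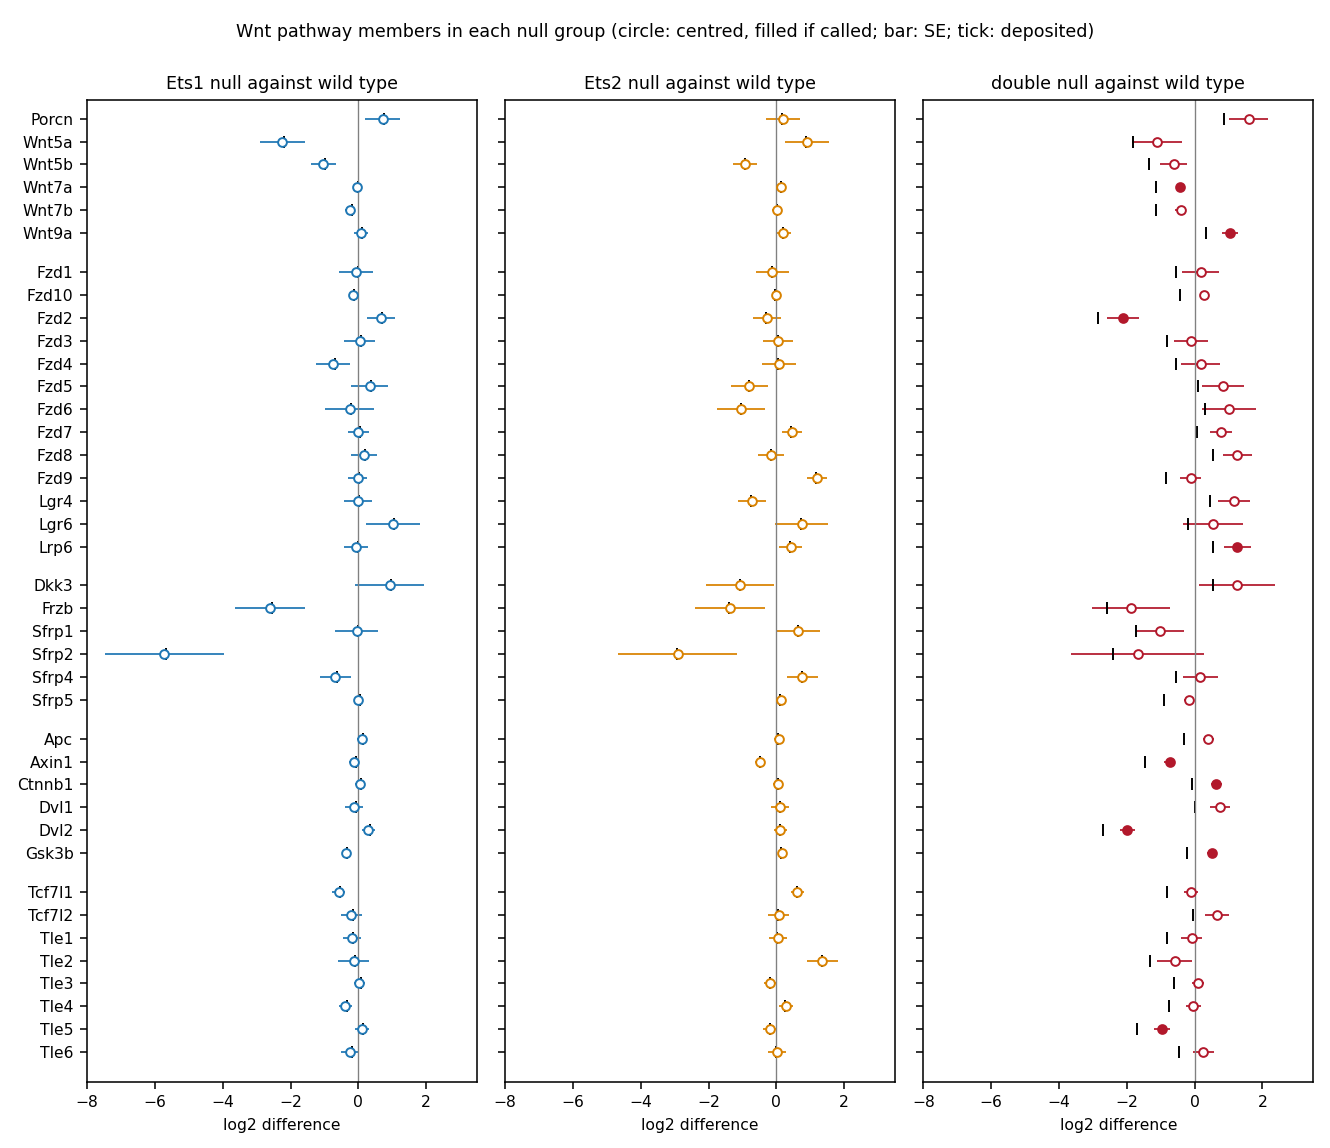
Log2 difference of each of the 39 Wnt genes from wild type in Ets1 null, Ets2 null and double null (x axis), grouped from top to bottom as ligands, receptors, secreted modulators, cytoplasmic relay and nuclear factors. Circles are centred differences with bars of 1 standard error, filled where called, and black ticks are deposited differences; the 9 filled circles all lie in the double null panel, where the ticks sit to the left of the circles.

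Against the single nulls, which share the double null arrays with the comparison above, 10 Wnt genes were called in double null against Ets1 null (5 higher and 5 lower) and 11 against Ets2 null (4 higher and 7 lower). Over all genes, 28.7% were called against Ets1 null (17.4% higher and 11.3% lower) and 30.3% against Ets2 null (17.1% higher and 13.2% lower). Dvl2, Fzd2, Tle5 and Wnt7a were lower, and Wnt9a and Ctnnb1 higher, in all 3 comparisons, with Ctnnb1 of the opposite sign in each in the deposited values. None of the higher calls against either single null stood in the deposited values (all genes 1.72% and 3%), and all of the lower ones did (all genes 11.3% and 13.2%). Every lower call over all genes stood there as well. The count against Ets1 null was 6 and 5 when Ets1 null array 2 or 3 was left out (all genes 19.2% and 18.2%), and it fell without double null array 2. The count against Ets2 null was 7 and 6 without Ets2 null arrays 1 and 2 (all genes 21.1% and 21.7%), and it fell without either double null array. Ets2 null arrays were all male and the arrays labelled double null female, and a term for male arrays left 2 calls there, Dvl2 at -2.20 and Wnt9a at 1.52. Over all genes it left 2.37% called in place of 30.3%.

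Among the ligands, Wnt7a fell and Wnt9a rose in the arrays labelled double null. Wnt7a, known for its part in brain vessel growth, read -0.84, -0.85 and -0.90 on the wild-type arrays, -0.97, -0.88 and -0.86 on the Ets1 null arrays, -0.70, -0.64 and -0.84 on the Ets2 null arrays, and -1.38 and -1.20 on those labelled double null. The 2 last arrays lay below the other 9, and the difference from wild type was -0.43 ± 0.12 (SE, n = 2 and 3, adjusted p = 0.0323; deposited -1.15). This small difference lost its call in 11 of 24 alternatives, among them those without wild-type array 1 or 2, Ets1 null array 2, Ets2 null array 1 or either double null array, with adjusted p up to 0.148. Against the single nulls it was -0.39 ± 0.12 (Ets1 null, adjusted p = 0.0448) and -0.56 ± 0.12 (Ets2 null, adjusted p = 0.00995), calls lost in 17 and 3 of 24 alternatives. Wnt9a, a ligand of skeletal and liver development, read -1.89, -2.34 and -2.77 on the wild-type arrays, -2.23, -2.28 and -2.27 on the Ets1 null arrays, -2.10, -2.07 and -2.21 on the Ets2 null arrays, and -1.49 and -1.07 on those labelled double null. All 9 other arrays lay below that pair, with a difference from wild type of 1.06 ± 0.24 (adjusted p = 0.0111) that was 0.34 in the deposited values (adjusted p = 0.219) and 0.85 without double null array 2 (adjusted p = 0.0811). It was 0.99 ± 0.24 against Ets1 null (adjusted p = 0.0149; deposited 0.22) and 0.85 ± 0.24 against Ets2 null (adjusted p = 0.0252; deposited 0.15), calls lost in 2 and 6 of 24 alternatives.

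The remaining ligand genes did not pass against wild type; members named here without a call were chosen after their values were seen. Wnt5a, which mostly signals through the polarity and calcium branches, read -1.0, -3.14 and -3.78 on the wild-type arrays, -4.58, -5.80 and -4.26 on the Ets1 null arrays, -1.59, -1.63 and -2.02 on the Ets2 null arrays, and -3.57 and -3.92 on those labelled double null. Every Ets1 null array was below every wild-type array, but wild type itself spread over nearly 3 units, and the difference was -2.24 ± 0.65 (adjusted p = 0.426). All 3 Ets1 null arrays of Wnt5a, Wnt5b, Sfrp2 and Frzb lay under 6.5 as deposited, the limit used to filter dim genes. So did both double null arrays of Wnt5a, Wnt5b, Frzb and Fzd9 and all 3 Ets2 null arrays of Wnt5b. The sizes of the differences of these genes in those groups are uncertain. In the arrays labelled double null Wnt5a was lower than in Ets2 null by -2.00 ± 0.73 (adjusted p = 0.0673), called in the deposited values at -2.71 (adjusted p = 0.0128). Wnt5b, a near relative of Wnt5a, differed from wild type by -1.03 ± 0.36 in Ets1 null (adjusted p = 0.505), -0.93 ± 0.36 in Ets2 null (adjusted p = 0.215) and -0.62 ± 0.40 in the arrays labelled double null (adjusted p = 0.281). It lay below the 3 wild-type arrays in each single null. Porcn, the enzyme that puts the lipid on Wnt proteins, differed by 0.72 ± 0.51, 0.19 ± 0.51 and 1.60 ± 0.57 in the same order (adjusted p = 0.70, 0.872 and 0.0658; the last 0.88 as deposited), with -1.77 and 0.16 in the arrays labelled double null against -2.59 to -2.06 in wild type. Wnt7b differed by -0.24, 0.02 and -0.41, the last called only in the deposited values (-1.13, adjusted p = 0.00043).

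Of the 13 receptor genes, Fzd2 fell and Lrp6 rose in the arrays labelled double null. Fzd2, a Frizzled that takes up signals such as Wnt5a, read 1.18, 1.94 and 0.47 on the wild-type arrays, 1.74, 1.98 and 1.88 on the Ets1 null arrays, 0.72, 0.27 and 1.77 on the Ets2 null arrays, and -0.80 and -1.05 on those labelled double null. Only the latter pair was below the array median, and it lay at least 1 unit under every other array. The difference was -2.12 ± 0.47 from wild type (adjusted p = 0.0108; deposited -2.84), -2.79 ± 0.47 from Ets1 null (adjusted p = 0.00362) and -1.84 ± 0.47 from Ets2 null (adjusted p = 0.0185). Against Ets1 null 2 of its 3 probe sets were called lower. Against wild type the fall rests on the brightest of the 3: the others gave -1.06 ± 0.47 and 1.07 ± 0.60, and the mean of its probe sets gave -0.64 (adjusted p = 0.365). Against wild type it also missed the threshold without double null array 2 (-2.00, adjusted p = 0.0646), and against Ets2 null without either double null array (adjusted p = 0.0587 and 0.0904).

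Lrp6, the co-receptor that hands the signal to Axin, read 0.07, -0.04 and 0.88 on the wild-type arrays, 0.55, 0.11 and 0.07 on the Ets1 null arrays, 0.28, 0.37 and 1.5 on the Ets2 null arrays, and 1.51 and 1.61 on those labelled double null. The last pair was highest, but Ets2 null array 3 came within 0.1 of it. The difference from wild type was 1.26 ± 0.39 (adjusted p = 0.0416), 0.54 in the deposited values (adjusted p = 0.319) and -0.25 ± 0.17 in the dimmer of its 2 probe sets. The call was lost in 13 of 24 alternatives, among them those without wild-type array 1 or 2, any Ets1 null array, Ets2 null array 2 or either double null array, with adjusted p up to 0.319. Against Ets1 null Lrp6 rose by 1.31 ± 0.39 (adjusted p = 0.0348; deposited 0.55), a call lost in 7 of 24 alternatives.

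Lgr4, Fzd8 and Fzd9 were called in the arrays labelled double null against Ets2 null only, and Fzd10 against Ets1 null only; whether those differences differ was not tested. Lgr4, a receptor for R-spondins, read -0.02, -0.43 and 0.85 on the wild-type arrays, 0.74, -0.18 and -0.21 on the Ets1 null arrays, -0.89, -0.99 and 0.09 on the Ets2 null arrays, and 1.52 and 1.09 on those labelled double null. It rose by 1.90 ± 0.46 against Ets2 null (adjusted p = 0.015; deposited 1.19, adjusted p = 0.0711), and the difference from wild type was 1.17 ± 0.46 (adjusted p = 0.0905). Fzd8 was higher than in Ets2 null by 1.41 ± 0.43 (adjusted p = 0.0358; deposited 0.71), and its 2 double null arrays, 1.01 and -0.12, were more than 1 unit apart. Without double null array 1, Lgr4 had 1.68 (adjusted p = 0.0836) and Fzd8 0.85 (adjusted p = 0.239), and the call of Fzd8 was also lost without Ets1 null array 1 or 2, or Ets2 null array 1 or 2.

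Fzd9, a Frizzled of bone and brain, read -2.40, -2.49 and -2.32 on the wild-type arrays, -2.22, -2.29 and -2.76 on the Ets1 null arrays, -1.35, -1.75 and -0.52 on the Ets2 null arrays, and -2.64 and -2.40 on those labelled double null. Ets2 null stood above every other array, with the lowest adjusted p of the set against wild type in that group, but it did not pass (1.19 ± 0.29, adjusted p = 0.0919). The Ets2 null arrays were male and wild-type arrays 2 and 3 female, so sex is mixed into that difference. In the arrays labelled double null it was lower than in Ets2 null by -1.31 ± 0.32 (adjusted p = 0.015; deposited -2.02; without double null array 1 -1.19, adjusted p = 0.0785). Both double null arrays of Fzd9 lay under the limit of 6.5 as deposited (6.09 and 6.29), so the size of that difference is uncertain. Fzd10 rose against Ets1 null by 0.45 ± 0.13 in centred values (adjusted p = 0.0335) and had -0.32 in the deposited ones (adjusted p = 0.0699). Its call was lost in 11 alternatives besides, 7 of which each left out 1 array: any Ets1 null array, Ets2 null array 1 or 2, or either double null array. Fzd4, the receptor of retinal vessel growth, differed from wild type by -0.74 ± 0.51 in Ets1 null, 0.07 ± 0.51 in Ets2 null and 0.18 ± 0.57 in the arrays labelled double null (adjusted p = 0.684, 0.958 and 0.843; the last -0.54 as deposited). All 3 Ets1 null arrays of Fzd4, -2.61 to -2.13, lay under the wild-type range of -1.89 to -1.27. The other 6 receptor genes (Fzd1, Fzd3, Fzd5, Fzd6, Fzd7 and Lgr6) passed in none of the 5 pairwise comparisons on their brightest probe sets.

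Over the wild-type arrays the secreted modulators Sfrp1, Sfrp2, Frzb and Dkk3 spread widely, and Sfrp4 and Sfrp5 little (standard deviations 0.04 and 0.13). Sfrp1, Sfrp2, Sfrp4, Sfrp5 and Frzb bind Wnt ligands and hold their signals down outside the cell, and Dkk3 was placed with them by its Dickkopf family name. The median standard deviation over the wild-type arrays was 1.74 for these 6 genes, 0.39 for all 39 Wnt genes and 0.24 for all genes. Over the Ets1 null arrays these medians were 0.15, 0.26 and 0.18, and over the Ets2 null arrays 1.08, 0.27 and 0.22. In Ets1 null Sfrp1 (0.53) and Dkk3 (0.35) spread more than the median over all genes, while Sfrp2 and Frzb lay under 6.5 as deposited on all 3 arrays. On the brightest probe set, none of the 6 passed in any comparison in centred values. Over all probe sets, 2 of the 5 of Sfrp1 were called lower in the 3 double null comparisons and in the interaction. The dimmer of the 2 Sfrp5 probe sets was called higher in the same comparisons, and 1 of the 2 Dkk3 probe sets was higher against Ets2 null.

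Sfrp2 read -0.74, 3.54 and -0.68 on the wild-type arrays, -5.15, -5.13 and -4.76 on the Ets1 null arrays, -4.52, -3.30 and 1.20 on the Ets2 null arrays, and 1.43 and -3.37 on those labelled double null. Every Ets1 null array lay at least 4 units below every wild-type array, while the other null groups held both high and low arrays. The difference in Ets1 null was -5.72 ± 1.75 (adjusted p = 0.446), its size uncertain at the deposited 4.32 to 4.73 of Ets1 null, with -2.92 ± 1.75 in Ets2 null (adjusted p = 0.393) and -1.68 ± 1.95 in the arrays labelled double null (adjusted p = 0.557). Frzb read -1.04, 0.31 and -4.36 on the wild-type arrays, -4.39, -4.23 and -4.26 on the Ets1 null arrays, -4.07, -3.44 and -1.70 on the Ets2 null arrays, and -3.64 and -3.49 on those labelled double null. Wild-type array 3 sat among the Ets1 null arrays, and the differences were -2.60 ± 1.04, -1.37 ± 1.04 and -1.87 ± 1.16 (adjusted p = 0.56, 0.50 and 0.258). With array weights in limma, which gave little weight to wild-type array 3 and Ets2 null array 3, Sfrp2 and Frzb were called lower in Ets1 null (-6.75 and -3.67, adjusted p = 0.0368 and 0.0349) and in Ets2 null (-5.17 and -2.96, adjusted p = 0.0325 and 0.0243). With these weights 2 and 4 of the 39 Wnt genes were called, beside 1.42% and 9.85% of all genes. With both arrays left out, an alternative added after the data were seen, Frzb was called in both (-3.93 and -3.39, adjusted p = 0.0148 and 0.0305; all genes 0.309% and 0.418%) and Sfrp2 in neither. For Frzb, wild-type array 3 (-4.36) was the lowest of its group and Ets2 null array 3 (-1.70) the highest. Giving them little weight or leaving them out therefore widens the Frzb differences, so these calls cannot test them.

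Dkk3 read -1.37, 3.17 and 1.52 on the wild-type arrays, 1.63, 2.32 and 2.14 on the Ets1 null arrays, -1.09, 0.12 and 1.08 on the Ets2 null arrays, and 2.87 and 1.87 on those labelled double null. Its groups all overlapped wild type, whose own arrays were over 4 units apart. Sfrp4 was even in wild type (-1.26, -1.34 and -1.34) and lower in every Ets1 null array (-1.95, -2.06 and -1.97), with a difference of -0.68 ± 0.46 (adjusted p = 0.677), and it ran from -1.51 to 0.61 in Ets2 null. Sfrp1 differed from wild type by -0.04 ± 0.63, 0.65 ± 0.63 and -1.01 ± 0.71. Sfrp5 differed by -0.00 ± 0.12, 0.12 ± 0.12 and -0.17 ± 0.14 on its brighter probe set, whose double null value was called only as deposited (-0.89, adjusted p = 0.000853). Its dimmer probe set had 0.53 there in centred values, called higher over all probe sets. Of the 13 fibroblast markers on the table (of 15), the summed centred level was 6.5 to 7.09 on the wild-type arrays, 6.55 to 6.76 on the Ets1 null arrays, 6.65 to 6.95 on the Ets2 null arrays, and 7.67 and 7.30 on those labelled double null. The 11 smooth muscle and pericyte markers (of 15) summed to 3.39 to 4.63, 3.58 to 4.76, 3.36 to 5.12, and 5.92 and 3.64 in the same order. For both lists the highest wild-type array was array 2, also the highest for Sfrp2, Frzb, Sfrp1 and Dkk3; the part of such cells in these values was not tested, and in bulk RNA fewer cells of a type and less RNA per cell cannot be told apart.

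**Figure D2:**
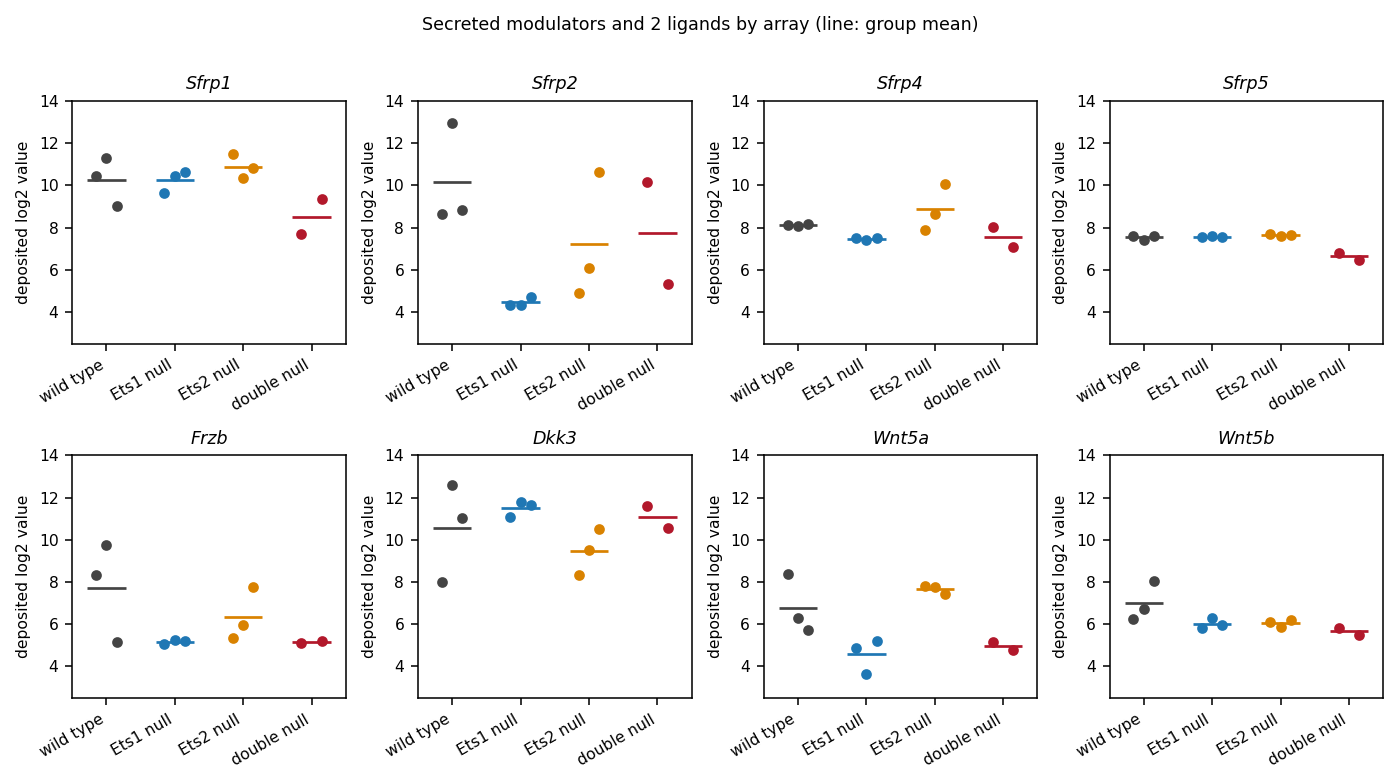
Deposited log2 value (y axis) of the 6 secreted modulators and of Wnt5a and Wnt5b on each array, with a line at the mean of each group. Sfrp2, Frzb and Dkk3 spread over several units within wild type, and all 3 Ets1 null points of Sfrp2, Frzb and Wnt5a are low.

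In the cytoplasmic relay, Dvl2 and Axin1 fell and Ctnnb1 and Gsk3b rose in the arrays labelled double null. Dvl2, 1 of the Dishevelled proteins that couple the receptor to the breakdown complex, read -0.41, -0.25 and -0.40 on the wild-type arrays, -0.10, 0.12 and -0.20 on the Ets1 null arrays, -0.14, -0.38 and -0.19 on the Ets2 null arrays, and -2.74 and -1.95 on those labelled double null. The other 9 arrays lay within 0.6 of each other and the double null pair more than 1.5 below the lowest of them. The difference was -1.99 ± 0.22 from wild type (adjusted p = 0.000629; deposited -2.71), -2.28 ± 0.22 from Ets1 null (adjusted p = 0.000293) and -2.10 ± 0.22 from Ets2 null (adjusted p = 0.000393). It was the only member whose call held in each of the 24 alternatives of all 3 comparisons, with -2.71 to -1.59 against wild type. As deposited the double null pair of Dvl2 read 5.996 and 6.745. The former lay under 6.5, the limit used to filter dim genes, so the size of the fall is uncertain. Dvl2 has 1 probe set, so no second one can be set beside it. Its relative Dvl1 differed from wild type by 0.75 ± 0.29 in its brighter probe set (adjusted p = 0.0893; deposited 0.03) and by -1.15 ± 0.18 in the dimmer (adjusted p = 0.00156 over all probe sets).

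The promoters of Dvl2 and Gsk3b, as RefSeq gives them on GRCm38.p6 from 250 bases before to 50 after the start, are shown because these relay genes moved in opposite directions in centred values (Gsk3b against wild type had the sign of Dvl2 as deposited) and were both called in the Ets1 by Ets2 interaction. Capitals mark CGGAAG, a common core of ETS factor sites, searched on both strands, together with CTTTGAT and CTTTGAA, core forms of Tcf and Lef sites. Dvl2 lies at chr11:70000342-70000641 on the plus strand and Gsk3b at chr16:38088751-38089050 on the plus strand.
Dvl2: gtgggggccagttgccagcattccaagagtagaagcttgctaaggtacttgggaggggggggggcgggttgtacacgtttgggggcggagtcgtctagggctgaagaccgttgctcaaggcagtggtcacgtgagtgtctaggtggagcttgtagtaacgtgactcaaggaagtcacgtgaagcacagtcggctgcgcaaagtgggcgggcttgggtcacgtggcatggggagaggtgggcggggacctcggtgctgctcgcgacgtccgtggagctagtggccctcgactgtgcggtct
Gsk3b: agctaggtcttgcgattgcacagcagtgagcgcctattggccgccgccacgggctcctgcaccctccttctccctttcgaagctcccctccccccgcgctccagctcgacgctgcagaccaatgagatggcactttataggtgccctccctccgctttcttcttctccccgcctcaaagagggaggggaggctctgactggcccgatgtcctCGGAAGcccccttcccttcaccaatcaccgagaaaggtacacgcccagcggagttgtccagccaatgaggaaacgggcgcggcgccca
Gsk3b has 1 CGGAAG, at position -38 from its start, and Dvl2 has no match to these letters in this window. No other form of ETS site was searched, so a lack of such sites in Dvl2 cannot be read from this. The Dvl2 window holds aggaag, which differs from CGGAAG in 1 letter. CGGAAG was in 7 of the 31 promoters found for 25 of the 39 members (22.6%), those of Frzb, Fzd5, Fzd7, Fzd10, Gsk3b, Tle6 and Wnt5b, and in 16.85% of all 32851 promoters of this length. CTTTGAT was in 1 of the 31, that of Wnt5b (all promoters 3.73%), and CTTTGAA in 0 (all promoters 5.14%). A match is a run of letters and was not read as a bound site.

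Axin1, the scaffold of the breakdown complex, read 0.20, 0.09 and 0.61 on the wild-type arrays, 0.14, 0.11 and 0.29 on the Ets1 null arrays, -0.16, -0.12 and -0.25 on the Ets2 null arrays, and -0.40 and -0.48 on those labelled double null. On the brighter of its 2 probe sets, read here, all 5 arrays of cells given Cre were lower than the 6 without it. The difference from wild type was -0.47 ± 0.15 in Ets2 null (adjusted p = 0.149) and -0.74 ± 0.17 in the arrays labelled double null (adjusted p = 0.0114; deposited -1.46), and -0.62 ± 0.17 between double null and Ets1 null (adjusted p = 0.0229). The dimmer probe set was lower too in the arrays labelled double null, by -2.04 ± 0.24 against wild type. In Ets2 null the dimmer one differed by only -0.14. As deposited its wild-type array 3 (7.93) lay below Ets2 null arrays 1 and 2 (8.22 and 8.17), so the split by Cre did not hold there. The call against wild type was lost without double null array 2 (adjusted p = 0.0613) and with only the arrays of those 2 groups in the fit (adjusted p = 0.0903), and that against Ets1 null without Ets1 null array 3 or either double null array (adjusted p up to 0.094).

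Gsk3b, the kinase that marks beta-catenin, read 1.59, 1.36 and 1.60 on the wild-type arrays, 1.18, 1.18 and 1.08 on the Ets1 null arrays, 1.69, 1.73 and 1.59 on the Ets2 null arrays, and 2.10 and 1.95 on those labelled double null. Ets1 null was lowest and the double null pair highest, with no overlap between either and wild type. In Ets1 null the difference did not pass (-0.37 ± 0.12, adjusted p = 0.463). In the arrays labelled double null it rose by 0.51 ± 0.13 against wild type (adjusted p = 0.0199) in centred values but had the opposite sign as deposited (-0.21, adjusted p = 0.221), and against Ets1 null it rose by 0.88 ± 0.13 (adjusted p = 0.00217; deposited 0.12, adjusted p = 0.51). The call against wild type was lost without wild-type array 2 (adjusted p = 0.0621) and without double null array 1 (adjusted p = 0.0921).

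Ctnnb1, beta-catenin itself, read 3.85, 3.92 and 3.87 on the wild-type arrays, 4.18, 3.82 and 3.78 on the Ets1 null arrays, 3.88, 3.91 and 4.01 on the Ets2 null arrays, and 4.32 and 4.71 on those labelled double null. That pair was highest on the brightest probe set, with a difference from wild type of 0.64 ± 0.17 (adjusted p = 0.021) that was -0.08 as deposited (adjusted p = 0.712) and -0.93 (adjusted p = 0.0117) in the mean of its 3 probe sets. The call was also lost without wild-type array 1 (adjusted p = 0.0539) and without double null array 2 (adjusted p = 0.139). In Ets1 null and Ets2 null Ctnnb1 differed from wild type by 0.05 ± 0.15 and 0.06 ± 0.15. The double null pair was above Ets1 null by 0.59 ± 0.17 and above Ets2 null by 0.58 ± 0.17 (adjusted p = 0.0279 and 0.0284), with -0.17 and -0.12 as deposited. Apc, the other scaffold of the breakdown complex, differed by 0.10 ± 0.15, 0.07 ± 0.15 and 0.40 ± 0.16 (adjusted p = 0.875, 0.841 and 0.0998; the last -0.32 as deposited).

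**Figure D3:**
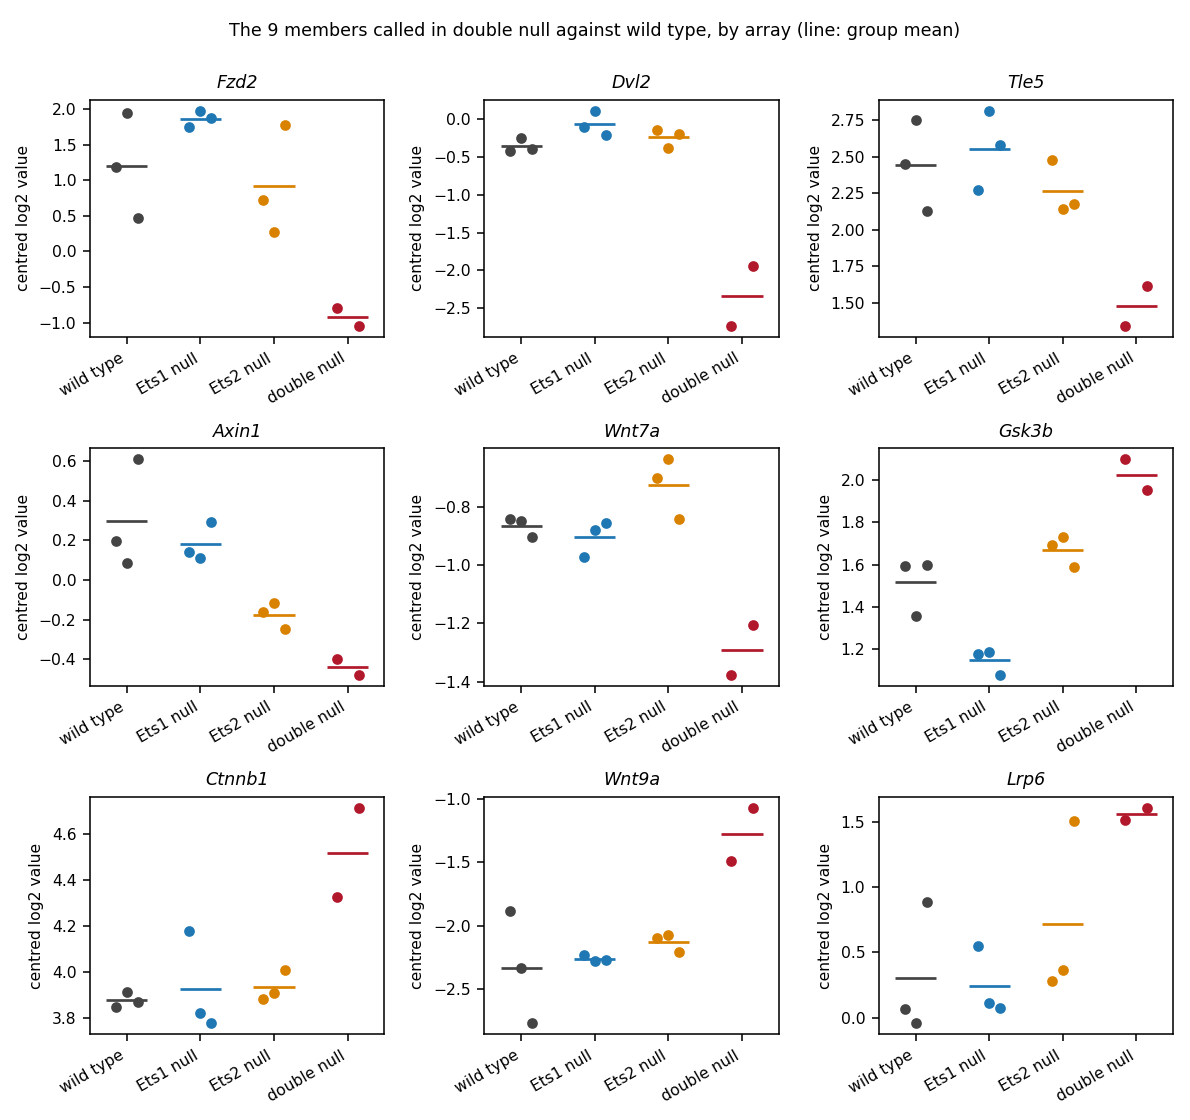
Centred log2 value (y axis, a separate range in each panel) of the 9 Wnt genes called in double null against wild type on each of the 11 arrays, with a line at each group mean. The double null points lie below all others for Fzd2, Dvl2, Tle5, Axin1 and Wnt7a and above all others for Gsk3b, Ctnnb1, Wnt9a and Lrp6; the last 4 were not called in the deposited values, where Gsk3b and Ctnnb1 had the opposite sign.

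Among the nuclear factors, Tle5 fell in the arrays labelled double null. Tle5 (also known as Aes), a short member of the Groucho family, read 2.45, 2.76 and 2.13 on the wild-type arrays, 2.27, 2.82 and 2.58 on the Ets1 null arrays, 2.48, 2.14 and 2.18 on the Ets2 null arrays, and 1.34 and 1.62 on those labelled double null. The first 9 arrays overlapped and that pair lay about 0.5 or more under them. The difference was -0.97 ± 0.23 from wild type (adjusted p = 0.0138; deposited -1.69), -1.08 ± 0.23 from Ets1 null (adjusted p = 0.00914) and -0.79 ± 0.23 from Ets2 null (adjusted p = 0.0299). Without double null array 1 none of the 3 passed (adjusted p = 0.0784, 0.058 and 0.148), and the third was also lost without double null array 2 or Ets2 null array 1 or 2.

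Tle2 and Tcf7l1 had their highest values in Ets2 null, whose arrays were all male, while wild-type arrays 2 and 3 were female. Tle2, a Groucho co-repressor, read -1.30, -0.18 and -0.44 on the wild-type arrays, -0.88, -0.61 and -0.84 on the Ets1 null arrays, 0.25, 0.04 and 1.85 on the Ets2 null arrays, and -1.14 and -1.31 on those labelled double null. Tcf7l1, a Tcf that mostly represses, read 1.55, 1.16 and 1.36 on the wild-type arrays, 0.91, 0.81 and 0.60 on the Ets1 null arrays, 1.65, 1.95 and 2.33 on the Ets2 null arrays, and 1.27 and 1.24 on those labelled double null. For both, every Ets2 null array lay above every other array, but against wild type neither passed (Tle2 1.36 ± 0.46, adjusted p = 0.169; Tcf7l1 0.62 ± 0.19, adjusted p = 0.136), nor did the lower Tcf7l1 of Ets1 null (-0.58 ± 0.19, adjusted p = 0.47). Tle2 was lower in the arrays labelled double null than in Ets2 null by -1.94 ± 0.51 (adjusted p = 0.02; deposited -2.65), and Tcf7l1 by -0.72 ± 0.21 (adjusted p = 0.0295; deposited -1.43). Tle2 missed the threshold without either double null array (adjusted p up to 0.0897), and Tcf7l1 also without Ets2 null array 2 or 3 (adjusted p up to 0.107). Tcf7l2, the main partner of beta-catenin in many tissues, differed from wild type by -0.21 ± 0.31, 0.07 ± 0.31 and 0.67 ± 0.34 (adjusted p = 0.873, 0.929 and 0.179; the last -0.05 as deposited). Tle1, Tle3, Tle4 and Tle6 passed in none of the 5 pairwise comparisons on their brightest probe sets.

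The Ets1 by Ets2 interaction, that is, double null less Ets1 null compared with Ets2 null less wild type, all as labelled, was called for 3 Wnt genes: Dvl2 (-2.40 ± 0.30, adjusted p = 0.002; deposited -3.14), Fzd2 (-2.51 ± 0.63, adjusted p = 0.0313; deposited -3.26) and Gsk3b (0.72 ± 0.18, adjusted p = 0.0271; deposited -0.02, adjusted p = 0.935). Over all genes 14.5% were called, 7.54% higher and 6.94% lower, beside 1 and 2 of 39, and those also called as deposited were 1.51% higher and 6.94% lower, beside 0 and 2. Every lower call over all genes thus stood as deposited. In the deposited values alone 10 of the 39 were called, all lower, beside 31.6% of all genes. Each rests on the arrays labelled double null, where Ets1 read above Ets1 null and a lower Ets2 was not seen. Dvl2 differed by 0.11 ± 0.20 between Ets2 null and wild type and by -2.28 ± 0.22 between double null and Ets1 null, as labelled. For Fzd2 these values were -0.28 ± 0.42 and -2.79 ± 0.47, and for Gsk3b 0.15 ± 0.12 and 0.88 ± 0.13. The Dvl2 call held in 23 of 23 alternatives, that of Fzd2 in 12 and that of Gsk3b in 10. The count of 3 became 1 without wild-type array 1 (all genes 11%), any single Ets1 null array (8.37% to 10.8%) or Ets2 null array 1 (9.08%). It became 5 without wild-type array 3 (14.2%) and 6 without Ets2 null array 3 (15.2%), and it fell without double null array 1.

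Probe sets of the same gene parted in the arrays labelled double null. Of the 39 Wnt genes, 19 had 2 to 6 probe sets. The range between the lowest and highest difference from wild type within a gene had a median of 0.21 in Ets1 null, 0.34 in Ets2 null and 1.4 in the arrays labelled double null, beside 0.17, 0.24 and 0.90 over the 4785 genes with several probe sets. In the last comparison it exceeded 1 in 13 of the 19 (68.4%) and in 45.3% of all such genes. Ctnnb1 had 0.64, -0.67 and -2.95 from the brightest to the dimmest probe set, of which the first was called higher and the third lower (adjusted p = 0.0183 and 8.9e-05 over all probe sets). Tle3, a Groucho co-repressor whose brightest probe set had 0.10, had -2.59 and -2.91 in the others, both called. Sfrp1 ran from -3.06 to -0.02 over 5 probe sets, Tcf7l2 from -1.25 to 0.67 over 4, and Fzd1 had 0.18 and -2.18. Against wild type all 6 Gsk3b probe sets were above 0 in centred values, from 0.19 to 1.01, and 3 were called (the brightest had -0.21 as deposited). Against Ets2 null they ran from -0.64 to 1.23, with 2 called higher and 1 lower. In the interaction they ran from -0.70 to 1.81, with 3 called higher. Gsk3b also spread in the single nulls, by 0.91 in Ets1 null and 1.06 in Ets2 null, more than its 0.82 in the arrays labelled double null. Both Axin1 probe sets were called lower. Dvl2, Tle5, Wnt7a and Wnt9a had 1 probe set each, and why probe sets of a gene parted was not tested.

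**Figure D4:**
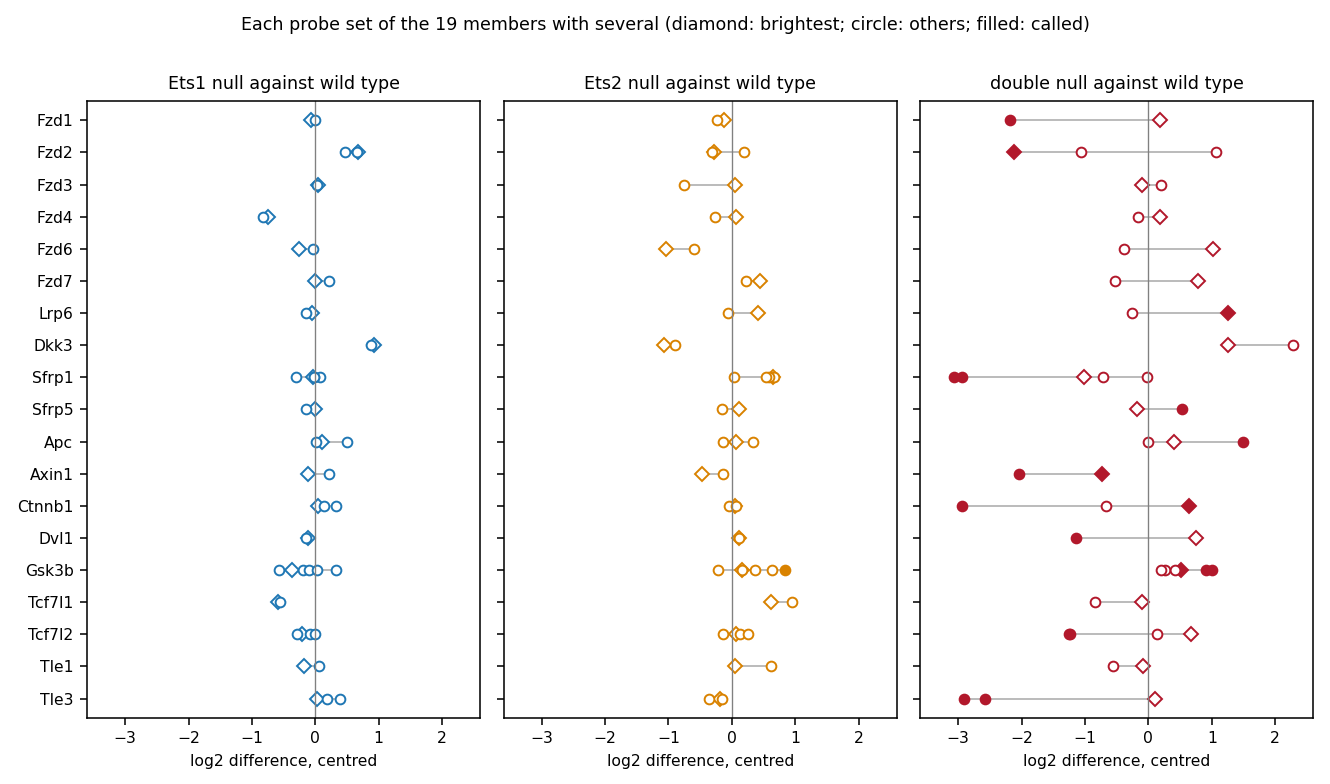
Centred log2 difference from wild type (x axis) of every probe set of the 19 Wnt genes with several, in Ets1 null, Ets2 null and double null. Diamonds are the brightest probe set, circles the others, filled where called over all probe sets; the median range within a gene is 0.21, 0.34 and 1.4 in these panels, wide in double null for Ctnnb1 (0.64 to -2.95), Tle3 (0.10 to -2.91) and Fzd2 (1.07 to -2.12).

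Other genes of the pathway were taken from lists chosen with earlier results of these data known, and none of their members passed in Ets1 null or in Ets2 null. Of 20 measured genes for beta-catenin turnover (of 25 listed), 6 were called higher and 0 lower in the arrays labelled double null against wild type (all genes 16.4% and 12%), none of them in the deposited values. They were Csnk1d (1.14 ± 0.16), a casein kinase, Tnks2 (1.06 ± 0.17), which tags Axin for breakdown together with the ubiquitin ligase Rnf146 (0.57 ± 0.13), Fbxw11 (0.83 ± 0.13), which recognises marked beta-catenin, the phosphatase subunit Ppp2r1a (0.76 ± 0.13) and Csnk2a2 (0.76 ± 0.13). The median of this list was 0.41 centred and -0.31 deposited, beside 0.11 and -0.61 over all genes.

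Of 11 nuclear partners of beta-catenin (of 12), 0 were called higher and 4 lower (all genes 16.4% and 12%). The 4 also stood in the deposited values, as every lower call over all genes did (12%). Pygo2, which links beta-catenin to chromatin, had -1.11 ± 0.21, Ruvbl1 -0.89 ± 0.29, and the beta-catenin antagonists Cby1 and Ctnnbip1 -0.88 ± 0.17 and -0.78 ± 0.26. The median of the list was -0.06. In the polarity and calcium branch (17 of 20), Rock1, a kinase of the actin skeleton, rose by 1.42 ± 0.17 and Scrib, a scaffold of cell polarity, fell by -1.65 ± 0.27, both also called as deposited (all genes 2.32% higher and 12% lower). Invs (1.15 ± 0.21) and Camk2g (0.86 ± 0.25) were higher in centred values only, so that 3 were higher in all, beside 16.4% of all genes. Of 15 known beta-catenin targets outside the rule (of 20), Vegfa (1.61 ± 0.47) and Cd44 (0.72 ± 0.23) were called higher, neither as deposited, and 0 lower (all genes 16.4% and 12%), with a median of 0.01. The 4 genes of ligand secretion (of 7), 8 other receptors and turnover genes (of 12) and 2 extracellular inhibitors (of 4) had no call against wild type. Their medians were 0.27, 0.52 and -0.58.

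The markers of other cells moved with the groups as follows. The 5 leukocyte markers on the table (of 12) summed to 0.35 to 1.26 on the wild-type arrays, 1.03 to 1.81 on the Ets1 null arrays, -0.12 to 0.29 on the Ets2 null arrays, and 0.26 and 0.97 on those labelled double null. The 4 epithelial and mesothelial markers (of 10: Epcam, Krt8, Krt19 and Msln) summed to 0.49 to 3.20, 4.37 to 4.92, 1.93 to 3.40, and 2.59 and 4.95. By summed level all Ets1 null arrays were thus above wild type for that list and below it for the endothelial one. The arrays labelled double null (1.96 and 1.91) were also below wild type for the endothelial list. By the median difference from wild type over its 7 markers, Ets1 null array 1 (-0.11) lay above wild-type arrays 2 and 3 (-0.12 and -0.17). In Ets1 null 2 of the 7 endothelial markers were lower without overlap, and 1 of the 4 epithelial and mesothelial ones was higher. In the arrays labelled double null 0 of 7 endothelial, 1 of 13 fibroblast (Fn1, 0.74 ± 0.15), 0 of 11 smooth muscle, 1 of 5 leukocyte (Csf1r, 0.67 ± 0.14) and 0 of 4 epithelial markers were called against wild type, beside 28.3% of all genes, the 2 named ones higher in centred values only. Pecam1, Cdh5 and Ptprc were among the listed markers not analysed here. The part of other cells in the Wnt gene values was not tested.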

How the data were processed

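RNA of 12 labelled samples was hybridised to Affymetrix arrays. The deposited table holds 1 log2 value per probe set and array, and the submitters' processing notes name RMA. Its version, any filter and whether it ran over all arrays jointly: not given in the sources used here. The column labelled double null replicate 3 is the mean of the other pair and was left out. Among 20523 probe sets, 18824 had a single gene symbol, 549 had more than 1 and 1150 had none. Each of 11015 genes was read from the brightest of the former probe set (mean over the 11 arrays). The median over genes was subtracted from every array. limma 3.58.1 in R 4.3.3 (lmFit and eBayes, 1 mean per group, two-sided, 7 residual degrees of freedom) was fitted over all genes with Benjamini-Hochberg adjustment at 0.05. It was also tested on simulated data, whose outcome is not given here, and no call rests on that. Errors are standard errors. Python 3.11.15 with pandas 2.3.3 and matplotlib 3.10.9 made tables and plots.

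The members, lists and tests were chosen with earlier results of these data known. Named are the called members, Ctnnb1, Tcf7l2, Fzd4, Lrp6, Apc, Gsk3b, Porcn, Ets1, Ets2 and up to 4 called genes of a list by size (the beta-catenin turnover genes are all given). The number of arrays limits the precision. The alternatives were other centring and normalization, averaged probe sets, a filter at 6.5, only the compared groups, each array left out, a replicate block, a male term, array weights and a variance trend. Not planned at first were leaving out both arrays of lowest weight and choosing the probe set brightest over the other 9 arrays. All 39 members matched RefSeq.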

Additional observations from a re-analysis of the deposited data

Results flagged for a closer look

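By the interaction term, the difference between the arrays labelled double null and Ets1 null departed from that between Ets2 null and wild type for 3 Wnt genes. For Dvl2 this difference was -2.40 on the log2 scale, for Fzd2 -2.51 and for Gsk3b 0.72, the last -0.02 in the deposited values. Each rests on the arrays labelled double null, whose Ets1 probe set read above that of Ets1 null and whose Ets2 probe set was above that of Ets2 null by 1.33 (deposited 0.62, adjusted p = 0.255 in limma). No Wnt gene had a group large enough for a test of single outlying arrays. Of the deposited table, the column labelled double null replicate 3 was left out. Gene values came from probe sets with a single gene symbol.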

How the results depend on the processing

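Each of 33 gene results with a call was tried under 23 or 24 alternatives. Of these 789 trials 602 kept the call, 178 lost it and 9 reversed. The filter at 6.5 kept 11004 of 11015 genes. Choosing the probe set brightest over the other 9 arrays changed that of Sfrp1 only, which had no call. Calls kept under these alternatives therefore carry little weight. As deposited, Ctnnb1 had -0.081 against wild type, -0.17 against Ets1 null and -0.12 against Ets2 null, Gsk3b -0.21 against wild type and -0.024 in the interaction, and Fzd10 -0.32 against Ets1 null. With probe sets averaged, Ctnnb1 had -0.93, -1.09 and -0.95. The cause was not tested.

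The count of Wnt genes called in Ets1 null was 2 with array weights and 1 without wild-type array 3 and Ets2 null array 3 together (added after seeing the data; all genes 1.42% and 0.309%). In Ets2 null these were 4 and 1 (all genes 9.85% and 0.418%). For double null against wild type the count was 5 with quantile normalization, 2 with only the arrays of the groups compared and 16 without both arrays (all genes 26%, 12% and 32.4%). For double null against Ets2 null it was 5 with only those groups' arrays and 2 with a male term (all genes 17.1% and 2.37%). For the interaction it was 10 as deposited, 5 with array weights and 8 without both arrays (all genes 31.6%, 18.9% and 16.8%). Leaving out 1 array at a time gave 0 to 0 in each single null, 4 to 14 in double null against wild type, 5 to 12 against Ets1 null, 5 to 13 against Ets2 null and 1 to 6 in the interaction. Other alternatives stayed within 1.5 times the count.

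Replicate numbers did not pair the arrays: 15 same-numbered pairs had correlations of deviations from -0.32 to 0.10. With the replicate block the count was 7 against Ets2 null and 1 in the interaction (all genes 24.5% and 8.91%), and it stayed within 1.5 times elsewhere.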
